A study of Mus musculus with 4 samples.

Results

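The SLC25 family holds the carriers that move metabolites across the inner mitochondrial membrane. Its members were taken as the protein-coding mouse genes of build GRCm38 whose symbol is Slc25a followed by a number. Slc25a4, the main cardiac adenine nucleotide translocase, and Slc25a20, the carnitine-acylcarnitine carrier, were left out. This gave 45 genes of 21631 protein-coding genes. Open chromatin had been mapped by ATAC-seq, in which the transposase Tn5 cuts accessible DNA and tags the fragments for sequencing, in nuclei of total hearts of newborn (P0) C57BL/6 mice. The 2 edKO hearts came from pups without RXR alpha and RXR beta in cardiomyocytes, and the 2 WT hearts from wild-type pups. Each library came from 1 heart. The line that drives the deletion is not given in the sources used here, nor is the residual RXR level. The question is which open regions near the carrier genes were called in hearts with and without both receptors.

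SLC25 proteins share a fold built of repeats and mostly exchange one solute for another, such as ADP for ATP, citrate for malate or aspartate for glutamate. In this way they link the matrix, where fuels are oxidised, to the cytosol, and the newborn heart depends on them as it turns from glucose to fatty acids. Retinoid X receptors are nuclear receptors that bind DNA in pairs with partners such as the PPARs and the thyroid hormone receptors, at repeats of a short half-site. A region of open chromatin at the start of a gene usually marks an active or poised promoter. Open regions farther away can be enhancers of that gene or of a neighbour.

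The authors deposited 1 peak list per heart. The lists held 27473 and 27142 peaks in edKO 1 and edKO 2, against 35279 and 38809 in WT 1 and WT 2. Peaks from any of the lists with 1 bp or more in common were joined, which gave 53140 regions, and each region was scored as called or not called in each heart. Where a heart has no call, its signal did not reach the authors' threshold, which does not show closed chromatin. The lists differ in summit pileup and enrichment, and without read totals their depth cannot be compared directly. The lowest background under a summit, in fragments, was 1.51 and 1.92 in the edKO hearts against 1.81 and 1.80 in the WT hearts. On that measure edKO 1 was the lowest and edKO 2 the highest. Summits were covered by a median of 19 and 18 fragments in the edKO hearts against 23 and 23 in the WT hearts, and among the 10000 strongest peaks of a list the fold enrichment had a median of 10.2 and 7.61 in the edKO hearts against 10.8 and 11.5 in the WT hearts. Over whole lists the median fold was 5.56 and 4.45 in the edKO hearts against 5.34 and 5.38 in the WT hearts, so edKO 1 was not below the WT hearts on that measure. With every list reduced to as many of its strongest peaks as the shortest one holds, the number of peaks near the carriers in edKO over WT hearts was 0.986, against 0.803 at full length. Among 12 cardiomyocyte marker genes, 10 and 11 had a peak within 1 kb of a gene end in the edKO hearts and 9 and 9 in the WT hearts, and Nkx2-5 had none in any heart. Of 5 fibroblast markers 2 and 2 had one in the edKO hearts against 3 and 4 in the WT hearts, of 4 mural cell markers 1 and 1 against 2 and 2, of 5 endothelial markers 2 and 2 against 1 and 2, of 4 immune cell markers 0 and 0 against 1 and 1, and of 4 erythroid markers 1 in each heart. Of 5 marker genes of other tissues, 1 had one in edKO 1 and 0 in the other hearts. The part of these markers' cell types in the calls was not tested. In whole hearts, fewer cells of a type and less open chromatin per cell cannot be told apart.

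The promoters of 6 members are shown first, because the results below turn on the region at or beside each of these starts. They are the RefSeq sequences of build GRCm38.p6 from 250 bases before to 50 bases after the listed start, written 5′ to 3′ on the strand of the gene. Capitals mark matches to the nuclear receptor half-site, its direct repeat with 1 base between (DR1), the cyclic AMP response element, the E-box and the YY1 site, each named or spelled out further on. Slc25a45 lies on the plus strand, with its window at chr19:5877572-5877871, and the others lie on the minus strand: Slc25a34 at chr4:141623785-141624084, Slc25a33 at chr4:149774218-149774517, Slc25a1 at chr16:17928170-17928469, the most downstream start of Slc25a25 at chr2:32424017-32424316, and Slc25a3 at chr10:91123918-91124217.
Slc25a45: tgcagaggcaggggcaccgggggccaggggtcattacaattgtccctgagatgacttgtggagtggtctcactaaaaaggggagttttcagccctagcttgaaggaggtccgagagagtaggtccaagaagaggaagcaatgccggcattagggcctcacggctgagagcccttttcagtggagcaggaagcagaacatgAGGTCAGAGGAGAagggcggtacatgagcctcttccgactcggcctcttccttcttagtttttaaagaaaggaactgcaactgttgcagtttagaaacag
Slc25a34: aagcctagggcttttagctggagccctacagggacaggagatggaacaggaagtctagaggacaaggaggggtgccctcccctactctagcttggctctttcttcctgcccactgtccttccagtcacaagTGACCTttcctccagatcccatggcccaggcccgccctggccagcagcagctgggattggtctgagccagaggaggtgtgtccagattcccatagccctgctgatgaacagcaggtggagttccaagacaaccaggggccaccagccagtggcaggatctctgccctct
Slc25a33: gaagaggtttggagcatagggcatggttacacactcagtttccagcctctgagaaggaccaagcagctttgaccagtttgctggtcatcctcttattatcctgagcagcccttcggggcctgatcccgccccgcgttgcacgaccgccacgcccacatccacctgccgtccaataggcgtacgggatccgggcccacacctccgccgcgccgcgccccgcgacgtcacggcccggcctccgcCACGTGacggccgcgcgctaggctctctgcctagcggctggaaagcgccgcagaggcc
Slc25a1: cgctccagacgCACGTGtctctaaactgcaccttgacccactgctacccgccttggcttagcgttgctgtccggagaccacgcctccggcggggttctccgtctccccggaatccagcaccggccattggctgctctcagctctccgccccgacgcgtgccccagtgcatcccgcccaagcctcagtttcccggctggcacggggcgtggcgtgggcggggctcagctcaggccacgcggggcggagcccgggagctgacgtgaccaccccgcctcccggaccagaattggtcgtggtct
Slc25a25: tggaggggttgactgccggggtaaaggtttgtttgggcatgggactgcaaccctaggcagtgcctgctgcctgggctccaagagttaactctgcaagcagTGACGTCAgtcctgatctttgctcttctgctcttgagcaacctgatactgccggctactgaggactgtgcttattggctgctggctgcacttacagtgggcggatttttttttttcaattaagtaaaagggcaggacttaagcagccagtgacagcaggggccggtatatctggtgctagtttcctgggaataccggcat
Slc25a3: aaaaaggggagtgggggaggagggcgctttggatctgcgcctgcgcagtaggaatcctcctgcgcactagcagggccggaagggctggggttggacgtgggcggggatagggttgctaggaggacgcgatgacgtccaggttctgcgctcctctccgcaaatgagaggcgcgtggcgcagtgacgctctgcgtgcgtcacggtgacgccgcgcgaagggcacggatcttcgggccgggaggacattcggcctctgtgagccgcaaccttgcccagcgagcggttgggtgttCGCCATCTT

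Within 20 kb of the 45 gene bodies lay 164 regions, and every member had at least 1. The edKO hearts had 103 and 97 of these regions called and the WT hearts 119 and 135, so the groups did not overlap. The means were 100 ± 4.24 and 127 ± 11.3 (SD, n = 2 each), and the ratio of edKO over WT was 0.787. Near all protein-coding genes, with 43965 regions, the same ratio was 0.738. It was 0.851 near the 40 genes of complex I subunits and 0.841 near the 78 genes of mitochondrial ribosomal proteins. With 2 hearts against 2, an exact permutation test over hearts cannot give a two-sided p below 0.333. No test was run, and the counts are given as a description.

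Of the 164 regions, 79 were called in all 4 hearts, which is 48.2%, against 34.4% of the regions near all protein-coding genes. Regions that had calls in each WT heart but no edKO heart, named WT-only here, numbered 12, or 7.32%, against 9.79% near all genes. Counted over the 106 regions that both WT hearts had called, they made up 11.3%, against 17.7% near all genes. The reverse, edKO-only regions, numbered 0 of 164, against 0.448% near all genes. Counted over the 80 regions that both edKO hearts had called, the share was 0, against 1.24% near all genes. The share of WT-only regions near the carriers was thus close to the background and somewhat below it. The regions near members that both WT hearts called were also stronger in the authors' −log10 p, with a median percentile of 74.9 within the lists against 62.1 near all genes, and they were wider, at a median of 611 bp against 510 bp.

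**Figure D1:**
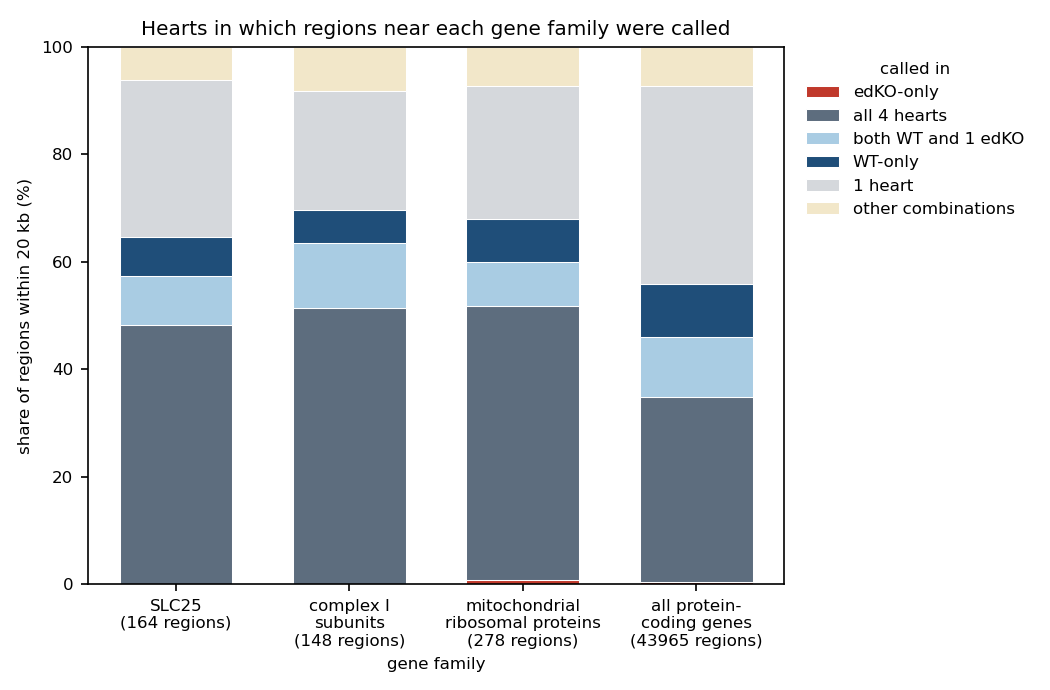
Share of the regions within 20 kb of each gene family (y axis, percent) that were called in each combination of hearts, for the SLC25 genes (164 regions), complex I subunits (148), mitochondrial ribosomal proteins (278) and all protein-coding genes (43965). All 3 mitochondrial families had a larger grey segment, called in all 4 hearts, than all genes, and the SLC25 genes had 12 WT-only and 0 edKO-only regions.

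The other mitochondrial families had like counts. Complex I subunit genes had 148 regions, of which 76 were called in all 4 hearts, 9 were WT-only and 0 were edKO-only. Genes of mitochondrial ribosomal proteins had 278 regions, of which 142 were called in all 4 hearts, 22 were WT-only and 2 were edKO-only. Whether the SLC25 genes differ from them was not tested.

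Another 15 SLC25 regions had calls in each WT heart and a single edKO heart. Of these, 13 lacked a call in edKO 2 and 2 lacked one in edKO 1. Near all genes the numbers were 3716 and 1246, so edKO 2 was the heart with more missing calls in both sets. A single heart called 48 regions, or 29.3%, against 36.8% near all genes. They were 2 in edKO 1, 14 in edKO 2, 10 in WT 1 and 22 in WT 2, where all genes had 1864, 4448, 3949 and 5909. In both sets edKO 2 held most of the single-heart calls of the edKO group.

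The calls differed with the place of the region. Of the 87 regions within 1 kb of any gene's end, 65 (74.7%) were called in all 4 hearts, against 65.3% of all such regions near protein-coding genes, and 3 were WT-only, or 3.45% against 4.57%. Of the 48 regions inside gene bodies, 11 (22.9%) were called in all 4 hearts, against 19.8%, and 3 were WT-only, or 6.25% against 12.2%. Of the 29 regions between genes, 3 (10.3%) were called in all 4 hearts, against 19.3%, and 6 were WT-only, or 20.7% against 12.5%. Counted over the 13 regions between genes that both WT hearts called, the 6 made up 46.2%, against 27.7% near all genes, a difference that rests on very few regions and was not tested. The edKO hearts called 8 and 8 regions between genes and the WT hearts 17 and 21, a ratio of 0.421. Near all genes the edKO hearts called 3037 and 2995 and the WT hearts 4520 and 5010, a ratio of 0.633. At the members' own ends, 40 of 51 regions (78.4%) were called in all 4 hearts and 2 (3.92%) were WT-only. For gene-end regions near all genes these shares were 65.3% and 4.57%. In the flanks, away from every gene end, 7 of 53 (13.2%) were called in all 4 hearts and 8 (15.1%) were WT-only. Near all genes the shares were 19.8% and 12.2% in gene bodies and 19.3% and 12.5% between genes. Flanks as such were not counted for all genes, and the 8 regions give no result about the carriers.

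Open gene ends were the rule for the carriers. A region within 1 kb of an end of the gene was called in all 4 hearts for 34 of the 45 members, or 75.6%, against 46.8% of all protein-coding genes. The same share was 85.0% for complex I subunits and 85.9% for mitochondrial ribosomal proteins. In single hearts, 35 and 35 members had a gene-end peak in the edKO hearts and 36 and 37 in the WT hearts, so the groups were separated by 1 member. Over all protein-coding genes the shares were 51.5% and 52.1% in the edKO hearts and 54.2% and 55.5% in the WT hearts, which did not overlap either. The strongest gene-end region of each of the 34 members had a median −log10 p of 48.2 and 35.0 in the edKO hearts and 61.1 and 77.9 in the WT hearts. Ranked within each list, these medians stood at the 88.1 and 88.8 percentile in the edKO hearts and at the 89.3 and 92.3 in the WT hearts. For the strongest such region of each of 10115 protein-coding genes, picked in the same way, the medians were the 80.0 and 80.0 percentile in the edKO hearts and the 84.5 and 85.3 in the WT hearts. The −log10 p, like the fold enrichment, is the authors' value within 1 list and grows with depth, so it ranks peaks of 1 heart and measures no difference between hearts.

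**Figure D2:**
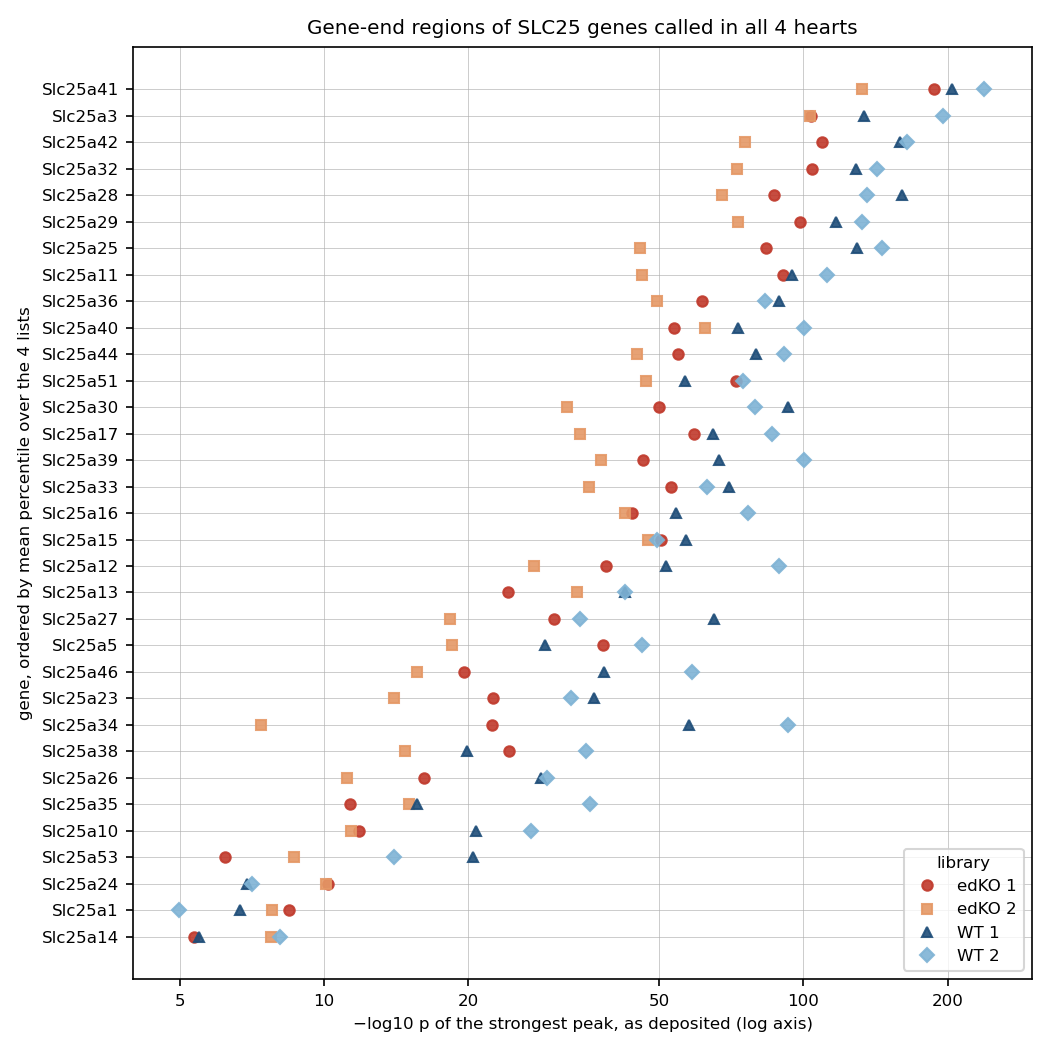
The authors' −log10 p (x axis, log scale) of the strongest peak in the gene-end region of SLC25 genes with such a region called in all 4 hearts, 1 row per gene and 1 symbol per heart (edKO 1, edKO 2, WT 1, WT 2). The values run from about 5 for Slc25a14 and Slc25a1 to 238 for Slc25a41 in WT 2, and Slc25a41 has the highest value in every heart.

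The strongest such region lay 386 bp outside Slc25a41, at chr17:57031380-57032386. Slc25a41 encodes an exchanger of ATP-Mg for phosphate that lacks the calcium-binding part of its relatives. The region had a −log10 p of 187 and 133 in the edKO hearts and 204 and 238 in the WT hearts. It also lies at an end of Khsrp, the gene of an RNA-binding protein, which is the nearer gene, so it cannot be credited to the carrier. The next was the start of Slc25a3, whose promoter is printed above and whose product imports the phosphate that ATP synthase uses. Its region at chr10:91123272-91124360 had a −log10 p of 104 and 103 in the edKO hearts and 134 and 196 in the WT hearts. Its percentile within the lists was 97.5 and 99.2 in the edKO hearts and 98.0 and 99.5 in the WT hearts.

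Carriers of cofactors followed. The start of Slc25a42, a carrier of coenzyme A, lay in a region at chr8:70212106-70212999 with a −log10 p of 110 and 75.7 in the edKO hearts and 159 and 164 in the WT hearts. The gene-end region of Slc25a32, a carrier of folate or flavin, at chr15:39112327-39113074, had 104 and 72.8 in the edKO hearts and 128 and 142 in the WT hearts, and it is shared with an end of Dcaf13. In both regions the peak of edKO 2 had the lowest −log10 p of the 4.

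At the weak end stood Slc25a1, Slc25a14, Slc25a24 and Slc25a53. The region over the start of Slc25a1, the citrate carrier, at chr16:17928032-17928460, had a −log10 p of 8.45 and 7.78 in the edKO hearts and 6.68 and 4.99 in the WT hearts. That of Slc25a24, a calcium-regulated carrier of ATP-Mg and phosphate, had 10.2 and 10.1 in the edKO hearts and 6.90 and 7.07 in the WT hearts. In both regions the edKO values were the higher ones. That of Slc25a14, a relative of the uncoupling proteins, had 5.36 and 7.74 in the edKO hearts and 5.48 and 8.09 in the WT hearts. That of Slc25a53, a little studied member, had 6.22 and 8.64 in the edKO hearts and 20.5 and 14.0 in the WT hearts, so there the edKO values were the lower ones. The lowest −log10 p of the lists was 3.04 or less.

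Slc25a34, a carrier with little known function, was singled out after its values were seen. Its start region at chr4:141623645-141624153 was called in all 4 hearts, with a −log10 p of 22.4 and 7.37 in the edKO hearts and 57.6 and 93.1 in the WT hearts. The fold enrichment over local background was 6.96 and 3.26 in the edKO hearts and 8.70 and 11.1 in the WT hearts. Within the lists the region stood at percentile 72.6 and 40.9 in the edKO hearts and 88.4 and 94.3 in the WT hearts. Its pileup at the summit was 38 and 24 fragments in the edKO hearts and 94 and 133 in the WT hearts. The promoter printed above holds a half-site at -119 on the strand opposite to the gene. The −log10 p was lower in both edKO hearts than in either WT heart for 27 of the 34 members, or 79.4%. Of the 10115 protein-coding genes with such a region 79.9% had this order, so for the −log10 p it was the usual one. The fold enrichment had the same order for 12 of the 34 members, or 35.3%, against 44.6% of those genes. For the fold it was thus a common order, though not that of most genes, and it does not set Slc25a34 apart. No difference at Slc25a34 was tested.

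The role groups are described in turn. The 4 carriers of carboxylates had 24 regions, of which 12 and 12 were called in the edKO hearts and 17 and 19 in the WT hearts. They were called in all 4 hearts at 9 regions and were WT-only at 4 of the 15 regions that both WT hearts had called. This was the largest share among the groups, where 17.7% of such regions near all genes were WT-only. It rests on few regions and was not tested, and those near Slc25a11 and Slc25a21 have another gene as their nearest. Slc25a1, which exports citrate for fatty acid synthesis, had 3 and 3 regions called in the edKO hearts and 6 and 5 in the WT hearts. Slc25a11, the oxoglutarate-malate carrier of the malate-aspartate shuttle, had 4 and 3 in the edKO hearts and 5 and 6 in the WT hearts. Slc25a10, which exchanges dicarboxylates for phosphate, had 5 and 5 in the edKO hearts and 5 and 6 in the WT hearts. Slc25a21, the carrier of oxoadipate, had 0 and 1 in the edKO hearts and 1 and 2 in the WT hearts, and no gene-end peak in any heart. Thus the edKO counts lay below both WT counts for Slc25a1 and Slc25a11.

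The 7 carriers of adenine nucleotides and phosphate had 23 regions, with 15 and 17 called in the edKO hearts and 17 and 21 in the WT hearts. Of these 13 were called in all 4 hearts and 2 were WT-only. Slc25a5, the adenine nucleotide translocase of many dividing tissues, had the same 3 regions called in every heart. Slc25a25, a calcium-regulated carrier of ATP-Mg and phosphate, had 9 regions, as many as Slc25a10 and more than the other members, with 6 and 6 called in the edKO hearts and 7 and 9 in the WT hearts. All 3 of its listed starts lay in regions called in all 4 hearts. Slc25a3 had 1 and 1 in the edKO hearts and 2 and 2 in the WT hearts. Slc25a23 and Slc25a41 are neighbours and share 4 regions, of which 3 and 3 were called in the edKO hearts and 3 and 4 in the WT hearts. Slc25a24 had 1 and 1 in the edKO hearts and 1 and 2 in the WT hearts. Slc25a31, a translocase known from the testis, had 1 and 3 in the edKO hearts and 1 and 1 in the WT hearts. Its only gene-end peak was in edKO 2, and its region called in all 4 hearts is at Hspa4l.

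The 9 amino acid carriers had 30 regions, with 22 and 19 called in the edKO hearts and 23 and 29 in the WT hearts. They were called in all 4 hearts at 18 regions and were WT-only at 1, near Slc25a2. Slc25a12 and Slc25a13 encode the aspartate-glutamate exchangers aralar and citrin of the malate-aspartate shuttle. Slc25a12 had 2 regions called in every heart, and Slc25a13 had 5 and 3 called in the edKO hearts and 5 and 6 in the WT hearts. The strongest region inside Slc25a13, at chr6:6184967-6185992 and 31181 bp downstream of the start, had a −log10 p of 37.1 and 18.5 in the edKO hearts and 56.6 and 71.4 in the WT hearts. For Slc25a22, which imports glutamate, 5 and 4 regions were called in the edKO hearts and 5 and 8 in the WT hearts, and the region 32 bp downstream of its start was called in edKO 1 and both WT hearts but not in edKO 2. Its relative Slc25a18 had 1 region, called in edKO 2 alone. Slc25a15, a carrier of ornithine, had 3 and 2 regions called in the edKO hearts and 3 and 3 in the WT hearts. Slc25a2, another carrier of ornithine, had 1 and 1 in the edKO hearts and 2 and 2 in the WT hearts. Slc25a29, a carrier of basic amino acids, had 1 region called in every heart. Slc25a38, which brings in glycine for heme synthesis, had 2 and 2 in the edKO hearts and 2 and 3 in the WT hearts. Slc25a44, a carrier of branched-chain amino acids, had 3 and 3 in the edKO hearts and 3 and 4 in the WT hearts.

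The 11 carriers of cofactors and nucleotides had 44 regions, with 28 and 25 called in the edKO hearts and 33 and 35 in the WT hearts. They were called in all 4 hearts at 22 regions and were WT-only at 4 of 28, all of which lay near Slc25a33 and Slc25a42. Each of the 11 had a gene-end region called in all 4 hearts. Slc25a33, which carries pyrimidine nucleotides, had 4 and 3 regions called in the edKO hearts and 7 and 7 in the WT hearts, and Slc25a42 had 4 and 3 in the edKO hearts and 6 and 7 in the WT hearts. Slc25a51, the importer of NAD, had 2 and 2 in the edKO hearts and 3 and 3 in the WT hearts, where the extra region was a different one in WT 1 and WT 2. Slc25a32 was the only member with more regions in both edKO hearts than in either WT heart, 2 and 3 against 1 and 1. That gives 1 member of 45, where 1.22% of all protein-coding genes with a region had such counts. The 3 regions behind it were each called in 1 edKO heart, at a −log10 p between 5.24 and 7.13. They lay 12478 to 15044 bp outside the gene and have Cthrc1 or Dcaf13 as their nearest gene, so they cannot be credited to the carrier. Slc25a16, needed for coenzyme A in the matrix, had 2 regions in every heart, and Slc25a40 had 1. Slc25a17, Slc25a26, Slc25a36 and Slc25a39 had overlapping counts between 1 and 4 regions in every heart.

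The 2 iron carriers differed in their called regions. Slc25a28, mitoferrin 2, had 2 and 3 regions called in the edKO hearts and 2 and 2 in the WT hearts, and its start region at chr19:43674547-43675643 had a −log10 p of 86.8 and 67.8 in the edKO hearts and 161 and 136 in the WT hearts. Slc25a37, mitoferrin 1, is known from developing red cells. It had 1 region, a call of edKO 2 inside the gene with a −log10 p of 5.24.

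The 12 uncoupling-like and less studied members had 44 regions, with 28 and 24 called in the edKO hearts and 31 and 34 in the WT hearts. They were called in all 4 hearts at 19 regions and were WT-only at 1, at Slc25a45. Slc25a30, a relative of Slc25a14, had 5 and 2 regions called in the edKO hearts and 5 and 5 in the WT hearts. A region inside Slc25a30, at chr14:75773293-75773841, had a −log10 p of 16.1 in edKO 1, no call in edKO 2, and 13.7 and 21.7 in the WT hearts. Slc25a34 had 4 and 6 in the edKO hearts and 4 and 4 in the WT hearts, Slc25a35 had 3 and 3 in the edKO hearts and 4 and 6 in the WT hearts, Slc25a45 had 3 and 3 in the edKO hearts and 4 and 5 in the WT hearts, and Slc25a48 had 1 and 0 in the edKO hearts and 2 and 2 in the WT hearts. The last 3 were lower in both edKO hearts than in either WT heart. At Slc25a48 the region called in a WT heart but not in edKO 1 was a different one in WT 1 and WT 2. Slc25a14 and Slc25a46, an outer membrane protein that shapes mitochondria, had 1 region in every heart. Slc25a27, Slc25a43, Slc25a47, Slc25a53 and Slc25a54 had between 1 and 3 regions per heart, with overlapping counts. Of these, Slc25a43, Slc25a47 and Slc25a54 had no gene-end peak of their own in any heart, and their regions called in all 4 hearts are the gene ends of Slc25a5, Slc25a29 and Slc25a24 next to them.

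Over the whole family, 11 members had fewer called regions in both edKO hearts than in either WT heart, which is 24.4%, against 23.0% of all protein-coding genes with a region. They were Slc25a1, Slc25a2, Slc25a3, Slc25a11, Slc25a25, Slc25a33, Slc25a35, Slc25a42, Slc25a45, Slc25a48 and Slc25a51. The share is close to that background and gives no result about the carriers as a family. The count was the same in every heart for 7 members.

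**Figure D3:**
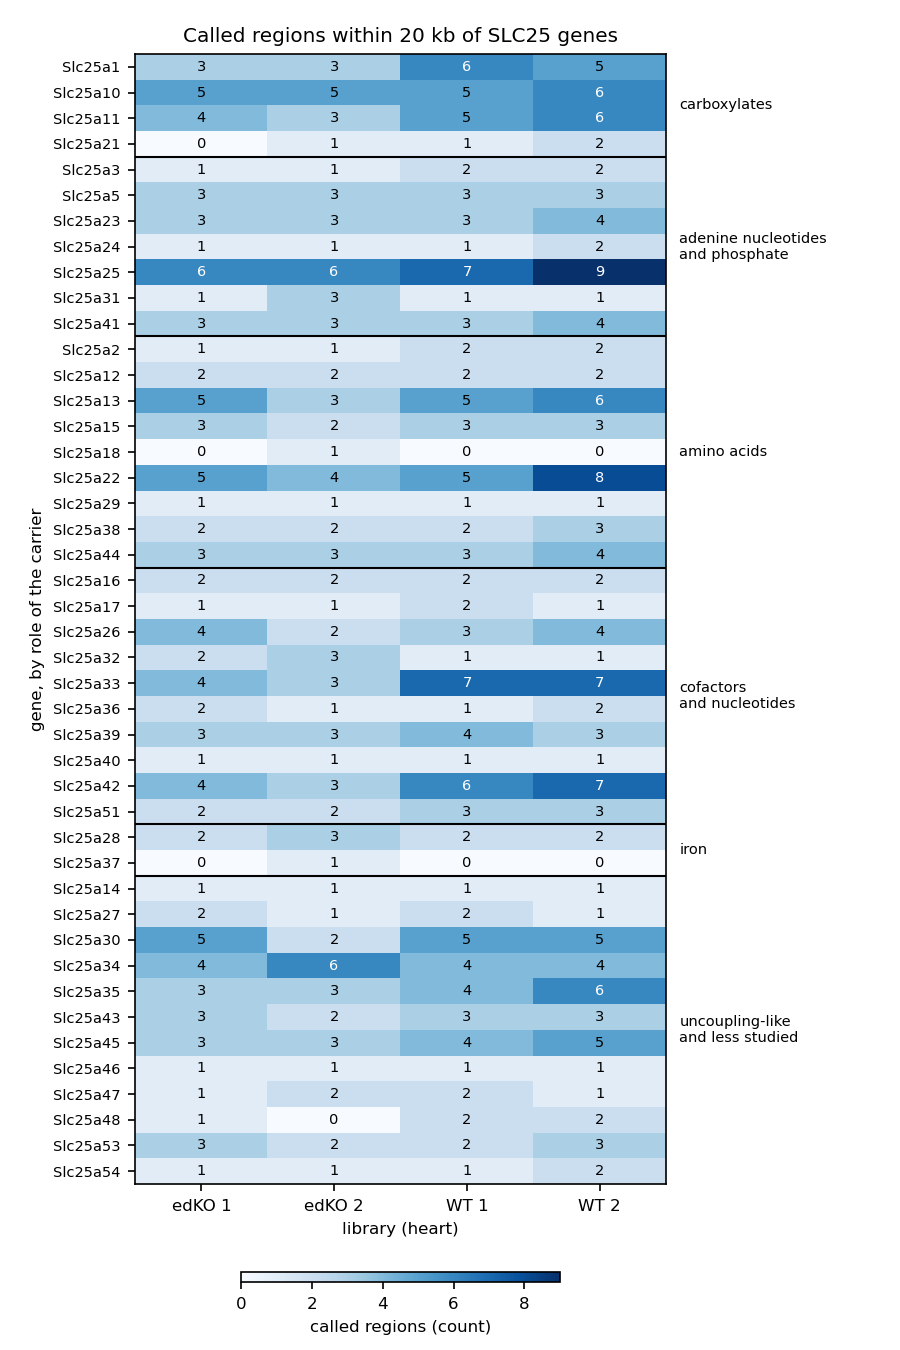
Number of called regions within 20 kb of SLC25 genes (rows, by role of the carrier) in each heart (columns), with the count written in each cell. Slc25a33, Slc25a42 and Slc25a1 show the widest steps between the edKO hearts (3 to 4 regions) and the WT hearts (5 to 7), and Slc25a32 shows the only step the other way.

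The 12 WT-only regions lay near 9 members, 3 of which, Slc25a1, Slc25a33 and Slc25a42, had more than 1. The share of all protein-coding genes with such a region was not counted. By region, 7.32% near members were WT-only against 9.79% near all genes. The strongest was upstream of Slc25a33, at chr4:149789749-149790181 and 15482 bp from the start. It was called in neither edKO heart and reached a −log10 p of 33.4 in the WT 1 heart and 24.4 in WT 2, at a mean percentile of 75.6. Slc25a33 is also the nearest gene of this region. A weaker WT-only region lay 1042 bp upstream of the same start, at chr4:149775309-149775605, with 7.51 in WT 1 and 10.5 in WT 2. Between both, a region 10123 bp upstream was called in edKO 1 at 7.23 and in the WT hearts at 10.7 and 11.9, but not in edKO 2. The region over the start itself was called in all 4 hearts, with 52.9 and 35.8 in the edKO hearts and 69.9 and 62.8 in the WT hearts. At Slc25a33 the start was thus called throughout, and the missing calls of the edKO hearts were upstream.

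At Slc25a42, too, the start was called in all 4 hearts. A WT-only region at chr8:70216538-70216828, 4257 bp upstream of its start, reached a −log10 p of 17.5 in the WT 1 heart and 26.7 in WT 2, and its nearest gene is Armc6. A second one lay inside the gene, at chr8:70200305-70200660 and 11621 bp downstream of the start, with 5.63 in WT 1 and 10.2 in WT 2. At Slc25a1 the WT-only regions lay 10640 bp upstream, at chr16:17938859-17939202, with 16.6 in WT 1 and 11.0 in WT 2, and 540 bp upstream, at chr16:17928759-17929111, with 8.11 in WT 1 and 8.80 in WT 2. The second of them is at the gene's own end. The peaks over the start of Slc25a1, beside it, were called in all 4 hearts.

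Slc25a45 had the other WT-only region at a member's own end, at chr19:5878039-5878384. It begins 217 bp downstream of the start and thus beyond the promoter printed above. It reached a −log10 p of 10.4 in the WT 1 heart and 22.7 in WT 2 and was the only region within 1 kb of an end of this gene. Slc25a45 was therefore the 1 member of 45 whose gene-end calls were confined to the WT hearts and present in each of them. How many of all protein-coding genes have this pattern was not counted, so the 1 member gives no result about the carriers. Among regions at any gene's end, 3.45% near members and 4.57% near all genes were WT-only. A call 2316 bp upstream, at an end of Frmd8, was present in all 4 hearts, at 11.8 and 4.76 in the edKO hearts and 19.2 and 16.2 in the WT hearts.

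**Figure D4:**
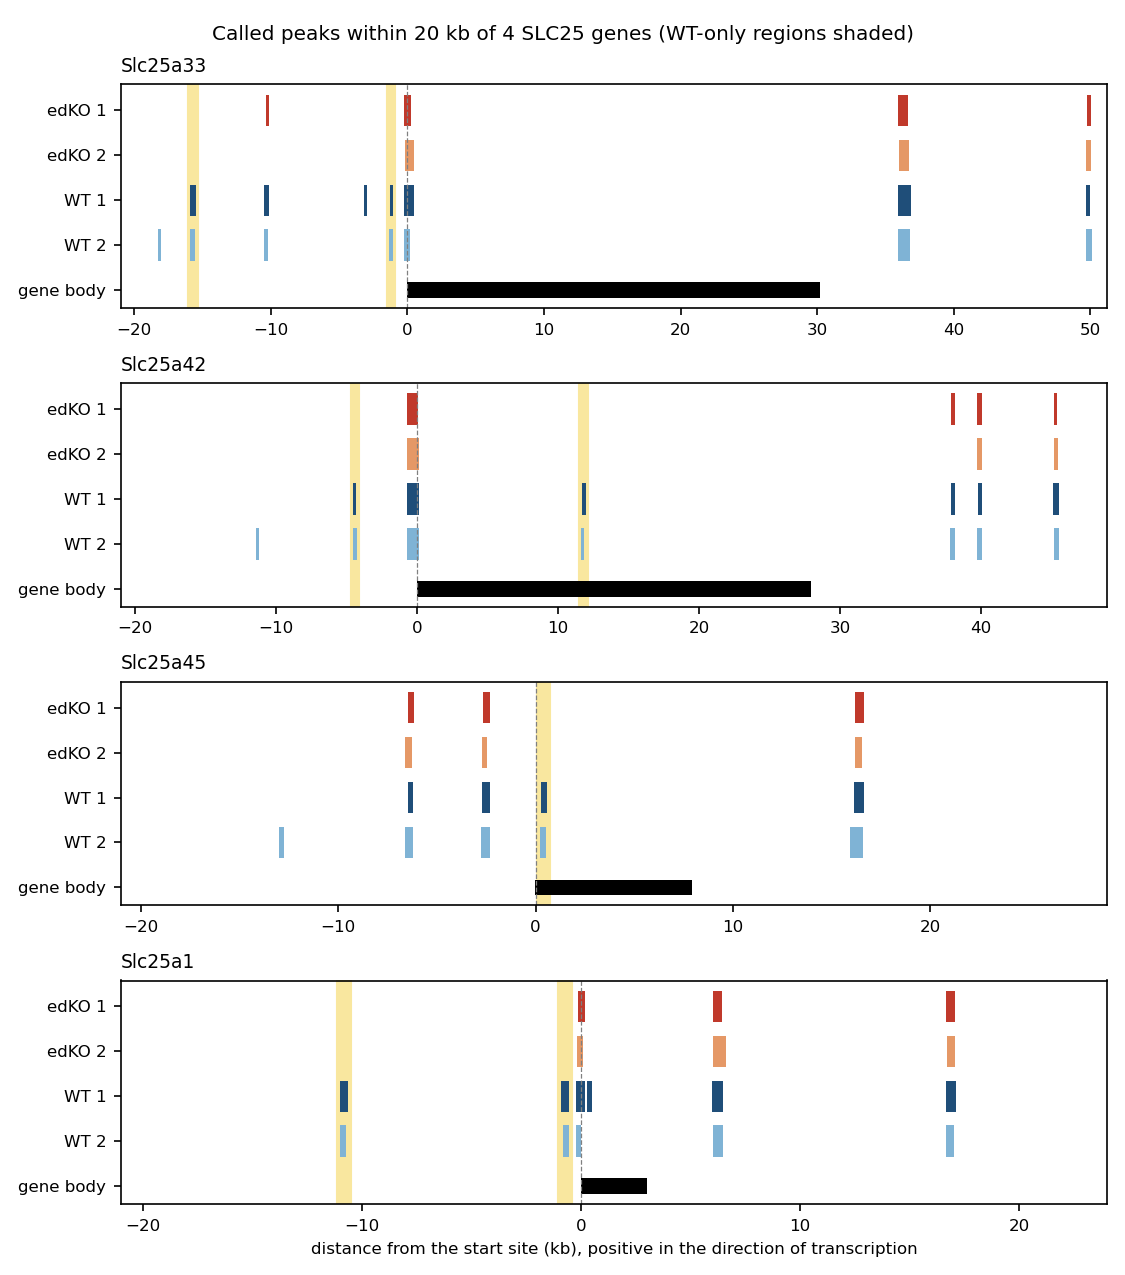
Called peaks of each heart (rows, with the gene body as a black bar) within 20 kb of Slc25a33, Slc25a42, Slc25a45 and Slc25a1, by distance from the start site in kb (x axis, positive in the direction of transcription). Shaded bands mark the WT-only regions, 2 at Slc25a33, 2 at Slc25a42, 1 at Slc25a45 and 2 at Slc25a1. Peaks over the start are present in all 4 hearts at Slc25a33, Slc25a42 and Slc25a1 but not at Slc25a45.

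The other 5 WT-only regions lay in the flanks of their members, each nearer to another gene. That of Slc25a2, at chr18:37655505-37656053, reached a −log10 p of 17.7 in the WT 1 heart and 9.97 in WT 2 and is nearest to Gm37013. That of Slc25a11, at chr11:70663949-70664217, had 8.87 in WT 1 and 15.1 in WT 2 and lies at an end of Spag7. That of Slc25a25, at chr2:32458385-32458618 and 6915 bp upstream, had 7.98 in WT 1 and 10.4 in WT 2 and is nearest to Naif1. None of these 3 has the carrier as its nearest gene. That of Slc25a21, at chr12:56695482-56695733, had 6.14 in WT 1 and 9.02 in WT 2 and is nearest to Pax9, and that of Slc25a3, at chr10:91139257-91139585, had 5.20 in both and is nearest to Tmpo. When every list was reduced to as many of its strongest peaks as the shortest list holds, 9 of the 12 remained WT-only, and the exceptions were those of Slc25a3 and Slc25a21 and the one inside Slc25a42. When a −log10 p of at least 10 was required, 4 remained so. These were the stronger regions of Slc25a33, Slc25a42 and Slc25a1 and that of Slc25a45. Both settings only remove peaks, so a WT-only region could not gain an edKO call under them. What they show is which regions had WT peaks above the cut in both WT hearts, and they give no information on the edKO hearts.

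**Figure D5:**
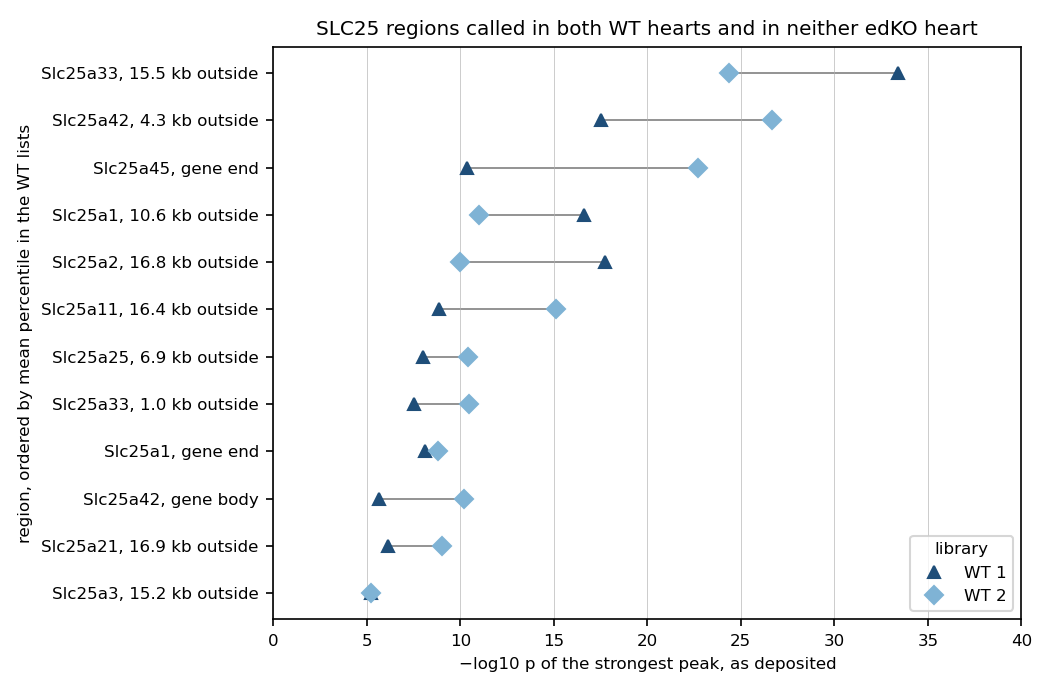
The authors' −log10 p (x axis) in WT 1 and WT 2 of the 12 WT-only regions near SLC25 genes, with each region's place given by the gene and its distance outside the gene body. The edKO hearts have no value, since no peak was called. The region 15.5 kb outside Slc25a33 is at 33.4 and 24.4, and the lowest, outside Slc25a3, is at 5.20 in both.

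No SLC25 region was edKO-only. With the lists reduced to equal length there were 5 such regions, at the starts of Slc25a1, Slc25a14 and Slc25a24 and in the flanks of Slc25a11 and Slc25a34, because weak WT peaks at or below the higher limits of the shortened WT lists were left out. At the full length of the lists all but 1 of the 5 were called in all 4 hearts, and that of Slc25a34 in all but WT 2. The 16 regions that were called in an edKO heart and in no WT heart were each called in 1 edKO heart. The strongest, between genes and 14682 bp downstream of the start of Slc25a10, had a −log10 p of 14.2 in edKO 2, and the others lay between 4.47 and 7.13.

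The set of RefSeq promoters used here held 44 start sites for 34 of the members. Of these, 29 lay in a region called in all 4 hearts, or 65.9%, against 43.9% of the 21045 start sites of protein-coding genes in that set. These 29 belonged to 24 members. The starts of Slc25a18, Slc25a21, Slc25a22, Slc25a31, Slc25a43, Slc25a45, Slc25a47 and Slc25a54 lay in no called region, nor did 1 of the 2 of Slc25a53, and that of Slc25a48 was called in WT 2 alone. The listed starts of Slc25a23 were called in edKO 1 and both WT hearts, with a −log10 p of 8.71 in edKO 1 and 9.12 and 9.90 in the WT hearts. Slc25a2, Slc25a26, Slc25a27, Slc25a32, Slc25a35, Slc25a37, Slc25a41, Slc25a44, Slc25a46 and Slc25a51 were among those with no entry in the set. That does not show that RefSeq lacks a start for them.

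Motifs were searched on both strands of the 44 promoters and of the 21045 promoters of protein-coding genes, as exact letters except for DR1. The half-site AGGTCA was found in 4 promoters, or 9.09% against 14.6% of all. They were those of Slc25a34, Slc25a39, Slc25a45 and Slc25a47. DR1, the element on which PPAR-RXR pairs are known to bind, contains the half-site, and it was matched with up to 2 mismatches in 2 promoters, or 4.55% against 3.35%. These were Slc25a45, at -50, and Slc25a47, at -153, and both matches overlap the half-site counted above. With at most 1 mismatch there were 0, against 0.485%. The longer element TCAAGGTCA, which is known for ERR receptors and also holds the half-site, was found in 0, against 0.337%. The DR1-like match of Slc25a45 lies outside its WT-only region, which begins downstream of the start.

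Among the other motifs, the GC box GGGCGG was found in 36 promoters, or 81.8% against 46.7%, and the E-box CACGTG in 8, or 18.2% against 7.91%. The E-box promoters were those of Slc25a1, Slc25a13, Slc25a14, Slc25a15, Slc25a31, Slc25a33 and Slc25a36, where Slc25a14 counts with 2 overlapping windows. The cyclic AMP response element TGACGTCA was found in 2, or 4.55% against 2.26%, in Slc25a36 at -161 and in the start of Slc25a25 at -150 that is printed above. That start lay in a region with a −log10 p of 17.1 and 10.1 in the edKO hearts and 32.8 and 46.5 in the WT hearts. The ETS site CCGGAAG was found in 5, or 11.4% against 11.7%, the YY1 site AAGATGGCG in 1, that of Slc25a3, or 2.27% against 1.84%, and the NRF1 core CGCATGCG in 0, against 2.53%. The median GC content of the member promoters was 59.3%, against 56.7% for all. A match is a description of letters and not evidence of binding, and these shares were not tested.

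Of 15 pairs of relatives, which share some genes, 3 had the same number of regions, 2 differed by 1, 3 by 2 or 3, and 7 by 4 or more. Slc25a5 and Slc25a31 had 3 each, as did Slc25a47 and Slc25a48, and Slc25a23 and Slc25a41 had the same 4. Slc25a33 had 8 regions and Slc25a36, the other carrier of pyrimidine nucleotides, had 2. Slc25a22 had 8 regions and Slc25a18 had 1, and neither had a gene-end region called in all 4 hearts. The counts of all pairs include regions of neighbouring genes. Only 1 of the 8 had Slc25a22 as its nearest gene, and the region of Slc25a18 is nearest to Atp6v1e1. Slc25a28 had 3 and Slc25a37 had 1. Slc25a25 had 9 and Slc25a24, a relative with the same substrates, had 2. Slc25a30 had 6 and Slc25a14 had 1.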

How the data were processed

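ATAC-seq peak lists of 4 P0 hearts were used, 2 edKO and 2 WT, grouped by sample title. Builds mm10 and GRCm38 are named in the submitters' processing notes, as are MACS2, Bowtie2, SAMtools, cutadapt, bcl2fastq and CASAVA. The sources used here state no versions, Tn5 shift, duplicate handling or read total per library. The authors' deposited lists, called per heart, give the fold enrichment (a ratio), the −log10 p and −log10 q, a score and the summit of each peak. The score (10 times the −log10 p, cut to whole numbers), the q-value and the summit position took no part in the main counts. Pileups were solved from fold and −log10 p under a Poisson tail, which gave whole numbers, within 0.001 in −log10 p, for 99.994% to 100% of peaks.

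Peaks overlapping by at least 1 bp were merged over all 4 lists with Python 3.11.15 and pandas 2.3.3, and regions within 20 kb of gene bodies in the RefSeq table of GRCm38.p6 were kept. Gene ends were taken as 1 kb on either side. Named were the members, the gene-end and the 10 strongest WT-only and edKO-only regions, the 5 strongest gene-end regions and relatives. WT-only, edKO-only and all-heart calls were counted without a test. Counting was checked on simulated lists. Alternatives were other overlaps, thresholds, distances and list lengths, and leaving out each heart. Members, families and motifs were chosen with earlier results of these data known. The values of 1 member are counted in the totals but not reported here by name. Planned protein features are not analysed here, nor is sequence outside the promoters.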

Additional observations from a re-analysis of the deposited data

How the results depend on the processing

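The 12 WT-only regions became 6 within 10 kb, 22 within 50 kb and 6 where the carrier had to be the nearest gene. They became 9 with lists of equal length and between 13 and 15 under the other thresholds and overlaps. A like count does not mean the same regions. Of the 13 at a −log10 p of at least 10, only 4 were among the 12. With 1 heart left out a group needs only 1 call, and the count was 34 without WT 1, 22 without WT 2, 25 without edKO 1 and 14 without edKO 2. The 0 edKO-only regions became 2 with windows of 200 bp around the summits, 1 at a −log10 p of at least 10, 5 with lists of equal length and 1 within 50 kb, and ranged from 0 to 14 with 1 heart left out, the 14 being without edKO 1. The 79 regions called in all 4 hearts became 136 within 50 kb and 43 for the nearest gene only. Peaks near members, 104 ± 1.41 in edKO hearts and 129.5 ± 10.6 in WT hearts (SD, n = 2 each), had a ratio of 0.803, which was 0.986 with lists of equal length. The background WT-only share of 9.79% was 9.39% with summit windows, 11.5% where a call had to cover 50% of the region, 13.9% at a −log10 p of at least 10, 10.5% at 5 or more, 5.15% with lists of equal length, and 12.6% to 23.2% with 1 heart left out. The 34 members with a gene-end region called in all 4 hearts ranged from 29 to 35 over all alternatives run. The 2 DR1-like promoters became 0 with at most 1 mismatch. No paired analysis was possible because the labels do not say whether hearts with the same number share a litter or batch. These counts also come from no test. Regions are calls at a threshold, 2 hearts per group measure little of the spread between animals, and a window of 20 kb also takes in regions of neighbouring genes.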
